A study of Acidomyces sp. 'richmondensis' with 12 samples.

Results

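The response of wild-type mycelium to 6 h of copper was followed in Acidomyces richmondensis MEY-1, a fungus that lives in acid, metal-rich habitats. The 6 libraries were chosen by their labels, out of 12 in the study: 3 from WT cultures in MMC medium without copper and 3 from WT cultures in the same medium with 15 mM CuCl2. All were mycelia grown in shaken liquid MMC, washed and moved to fresh medium before the 6 h began, so the controls had been transferred too. The other 6 libraries came from the strain lacking the gene ArAceA (∆ArAceA), 3 without and 3 with 15 mM CuCl2, and are used only where the same gene is set beside its response in that strain. Whether ∆ArAceA was a single clone is not given in the sources used here. Each library is one of triplicate cultures.

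Copper is a cofactor of respiratory and antioxidant enzymes such as cytochrome c oxidase and copper/zinc superoxide dismutase, and in excess it promotes reactive oxygen species and displaces other metals from proteins. Fungi meet an excess by lowering uptake, by binding copper in metallothioneins and by exporting it through P-type ATPases such as CrpA of Aspergillus fumigatus. In that fungus AceA is the transcription factor that turns on crpA in excess copper, and ArAceA carries the same name. The files list genes by locus identifier without a product, so no gene below is assigned to any of these roles. Identifiers are given for the 2 largest rises and the 2 largest falls by fitted change, and other genes are called by their rank in that order and by their level.

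Levels are given in FPKM, that is, sequenced fragments divided by transcript length in kilobases and by library size, and the files list 10043 genes. The sum of FPKM per library lay between 893185 and 926713 in the 6 WT libraries. The absolute depth was unknown. Steps between low values placed the depths of these libraries, relative to one another, between 0.983 and 1.07, with WT replicate 1 the deepest. Only ratios whose natural log was under 0.15 in size entered this estimate. It therefore favours near-equal depths and could hardly show larger differences. Across the tested genes, pairs of WT libraries correlated at r = 0.993 to 0.994 on the log2(FPKM + 1) scale, pairs of copper libraries at 0.995 to 0.996 and pairs across the treatment at 0.985 to 0.988, as a description of libraries that share their genes. The spread between replicates was wider without copper. The median SD of a gene over 3 libraries was 0.103 in WT and 0.0775 in WT with copper on the log2(FPKM + 1) scale, and 63.1% of the tested genes had the larger SD in WT. The ArAceA locus was not analysed here.

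The share of FPKM that changed place was small. If each library is scaled to the same total, 5.44 to 6.53% of the FPKM (median 5.91% over 9 pairs) had to be moved between genes to turn a library without copper into one with copper. Between replicates the same measure was 3.73 to 4.88% among the WT libraries and 2.47 to 3.03% among the copper libraries, so the lowest value across the treatment lay above the highest between replicates. The most abundant 100 genes held 37.1 ± 0.655% of the FPKM without copper (± gives the SD over n = 3 cultures throughout) and 37.2 ± 0.332% with copper. Genes listed at 0 numbered 505, 510 and 526 in the copper libraries and 568, 598 and 564 in the controls, groups that did not overlap. That difference reached p = 0.1 in a two-sided exact permutation test, the smallest value that 3 against 3 libraries allow, and 0.4 after adjustment over 4 such measures.

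Gene by gene, copper changed many transcripts slightly and few strongly. Changes were tested with limma on log2(FPKM + 1), in a single fit of the 4 groups, for the 8741 genes with at least 1 FPKM in at least 3 of the 12 libraries (1302 were left out), and a gene was called at an adjusted p under 0.05. Of these genes 21.4% were called, with 929 higher (10.6%) and 938 lower (10.7%). The called rises had a median log2 change of 0.41 and the called falls one of -0.28, while the median of all tested genes was -0.01. With rising size the falls dropped away faster than the rises. A called change of at least 1.5-fold was found in 282 higher and 69 lower genes, one of at least 2-fold in 105 and 16, one of at least 4-fold in 24 and 3, and one of at least 8-fold in 6 and 1. The strong changes (at least 2-fold) were thus 1.2% of the tested genes upwards and 0.183% downwards. These counts depend on the scale and the test, with 161 higher and 26 lower at a pseudocount of 0.1, and 36 and 5 in limma's test against a minimum change of 2-fold. A fit on the 6 WT libraries alone called 683 genes higher and 596 lower at any size.

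The even split between rises and falls depended on the scaling. After upper-quartile scaling 1202 genes were higher and 710 lower (62.9% higher, against 49.8% as deposited), whereas the strong changes were 106 and 15. After median-of-ratios scaling the split stayed nearer to even, with 1046 higher and 921 lower (53.2% higher). The intervals were narrow for genes of clear level that were not called. Of 6874 genes not called, 3162 had a mean of 20 FPKM or more over the 6 WT libraries, and in 3146 of these (99.5%) the 95% interval of the log2 change lay inside 1 unit in either direction. For lower genes the pseudocount of 1 compresses the change, so that the same limit says little about their fold. The median SE of a log2 change was 0.0774.

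**Figure D1:**
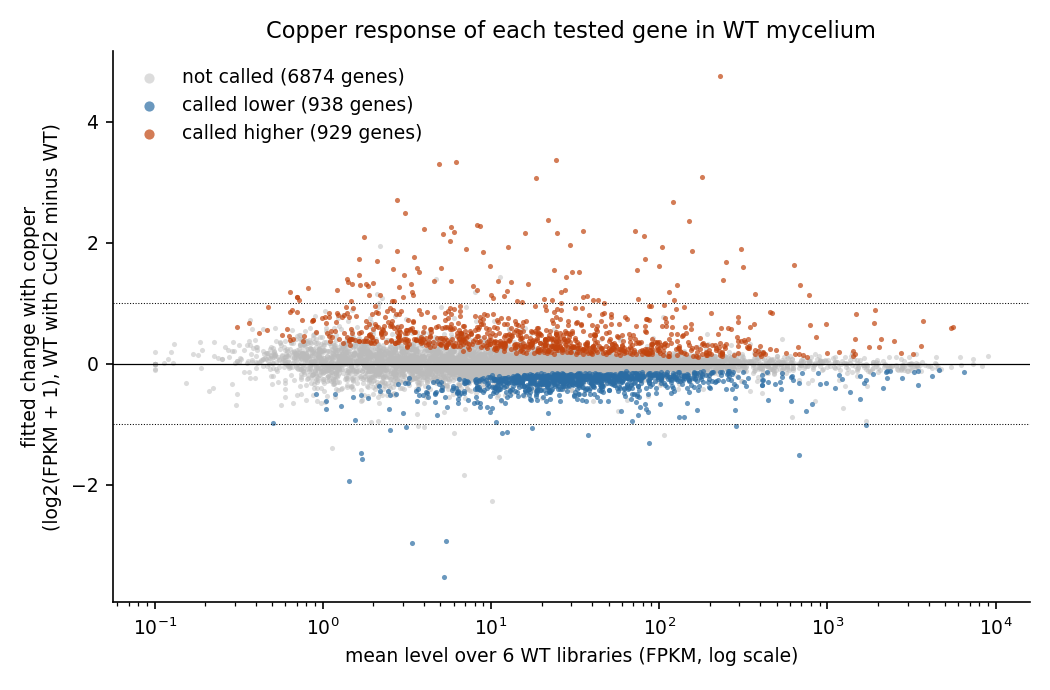
Each point is a gene, with its mean level over the 6 WT libraries on the horizontal log axis (FPKM, levels under 0.1 drawn at 0.1) and its fitted change with copper on the vertical axis (log2(FPKM + 1) scale, dotted lines at 2-fold). More points lie above the upper dotted line than below the lower one, 105 against 16 called genes, and the highest point is M433DRAFT_310551 at 4.75.

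The direction of the calls differed between levels. Among 1998 tested genes with a mean under 5 FPKM over the 6 WT libraries, 216 were called higher and 44 lower, so that 83.1% of the calls were rises. Genes of 5 to 20 FPKM divided into 256 and 241, those of 20 to 100 FPKM into 296 and 481 (38.1% rises), and those of at least 100 FPKM into 161 and 172. After upper-quartile scaling the shares of rises from the lowest class to the highest were 86.7, 62.1, 53.3 and 65.1%, with 231 rises and 124 falls at 100 FPKM and above. After median-of-ratios scaling they were 82.9, 53.1, 42.4 and 54.2%. The test was less precise at low levels, with a median SE of 0.137 under 5 FPKM against 0.0508 at 100 FPKM and above, and a called change there had a median size of 0.55 against 0.27. Some genes of the lowest class were tested only because a single group brought them past 1 FPKM, so its counts do not stand for all genes of that level. Strong rises were found in every class, 38 under 5 FPKM, 26 at 5 to 20, 23 at 20 to 100 and 18 at 100 FPKM and above, and strong falls numbered 6, 5, 2 and 3. A rise itself lifts the mean over the 6 libraries, and by the level without copper the strong rises in these classes numbered 55, 23, 19 and 8.

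**Figure D2:**
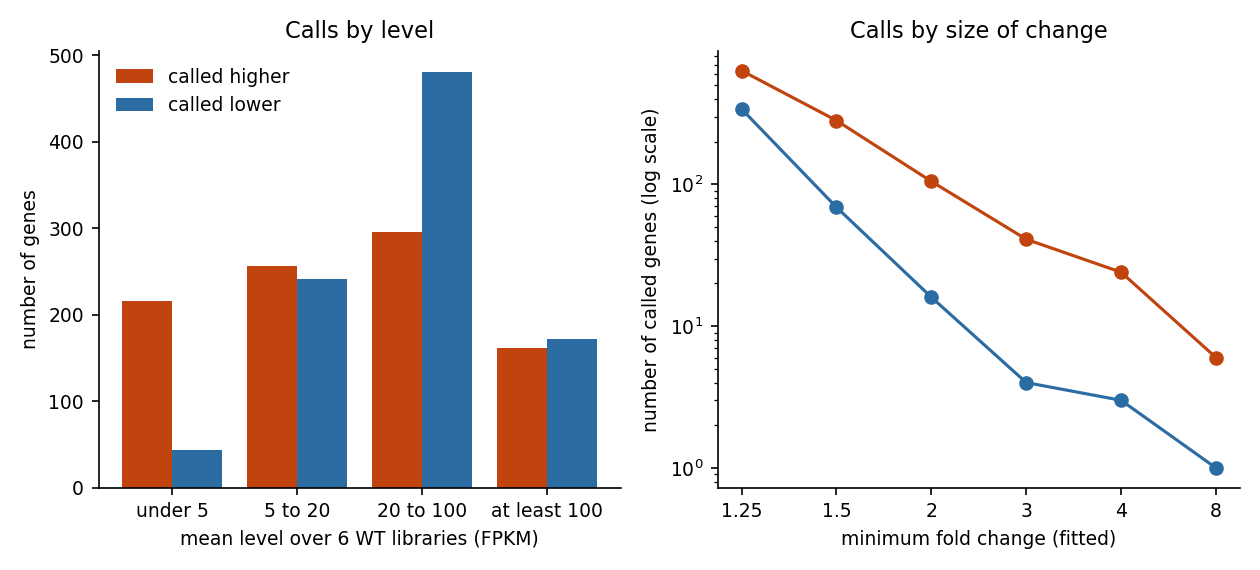
Number of genes called higher (orange) and lower (blue) with copper in WT, on the left by mean level over the 6 WT libraries (FPKM) and on the right by the minimum fitted fold change, with a log axis of counts. Rises outnumber falls 216 to 44 under 5 FPKM and 105 to 16 at 2-fold and above.

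The 105 strong rises started low. Their median level went from 4.31 FPKM to 14.8 FPKM, while the median of all tested genes without copper was 19.2 FPKM. Of the 105, 27 had a mean under 1 FPKM without copper, against 486 of the 8741 tested genes. A choice by large rise itself favours low controls. In all 105 the lowest copper library lay above the highest library without copper. Such a separation upwards was found in 16.4% of the tested genes, and since a strong call favours it the count is a description. A pair of the 105 genes, each at 0.07 FPKM without copper, had the same values in all 12 libraries, so these counts may hold the same signal more than once. Together the 105 genes held 0.382, 0.296 and 0.345% of the FPKM in the 3 libraries without copper and 1.05, 1.06 and 1.01% in those with copper. Their summed level rose from 3099 ± 371 to 9451 ± 335 FPKM, and the 10 genes that gained most FPKM made up 62.0% of this gain.

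By fitted change on the log2(FPKM + 1) scale, M433DRAFT_310551 ranked first. With a pseudocount of 0.1 its change was 4.83, and 4 genes whose controls were at or near 0, rises 3, 4, 7 and 9 in the plot by library, stood above it at 5.72, 6.47, 5.81 and 5.44. The levels of M433DRAFT_310551 were 15.2, 15.9 and 15.6 FPKM in the WT libraries and 471, 464 and 407 FPKM in the copper libraries, a 28.7-fold difference of means. All 3 copper libraries stood far above the controls, and copper replicate 3 was the lowest of them. By limma the log2 change was 4.75 with an SE of 0.0742 (adjusted p = 9.3e-14). In ∆ArAceA the same gene stood at 13.4, 14.8 and 13.2 FPKM without copper and 12.91, 10.64 and 12.03 FPKM with it, so the strains were close without copper and apart with it.

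M433DRAFT_154429 ranked second. It had 3.19, 3.28 and 3.98 FPKM without copper and 48.8, 45.9 and 40.3 FPKM with copper (12.9-fold, fitted change 3.36, SE 0.078, limma adjusted p = 4.06e-12). Unlike the first gene it also rose in ∆ArAceA, where the copper libraries reached 211, 202 and 214 FPKM.

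The next ranks mixed genes near 0 with genes of clear level. The third gene was listed at 0 in 2 WT libraries and at 1.06 FPKM in the other, against 15.2, 9.97 and 10.99 FPKM with copper. The fifth went from 35.9, 36.7 and 38.6 FPKM to 316, 316 and 332 FPKM, an 8.67-fold rise with little spread in either group. The sixth went from 3.31, 1.98 and 4.24 FPKM to 39.3, 27.3 and 34.4 FPKM, 10.6-fold. In these 3 genes the groups lay far apart, and the rank of the third rests on values near the lower limit of the table. The eighth rose 6.57-fold, from 34.3, 30.4 and 30.7 FPKM to 239, 213 and 175 FPKM, and the tenth 5.76-fold, from 6.45 ± 1.68 to 37.2 ± 2.31 FPKM. The 11th rose 5.19-fold, from 52.8, 46.5 and 47.0 FPKM to 267, 251 and 241 FPKM. It had the smallest SE of the 12 largest rises, 0.054 on a fitted change of 2.35. The 12th rose 6.65-fold, from 2.17 ± 0.382 to 14.4 ± 0.523 FPKM.

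**Figure D3:**
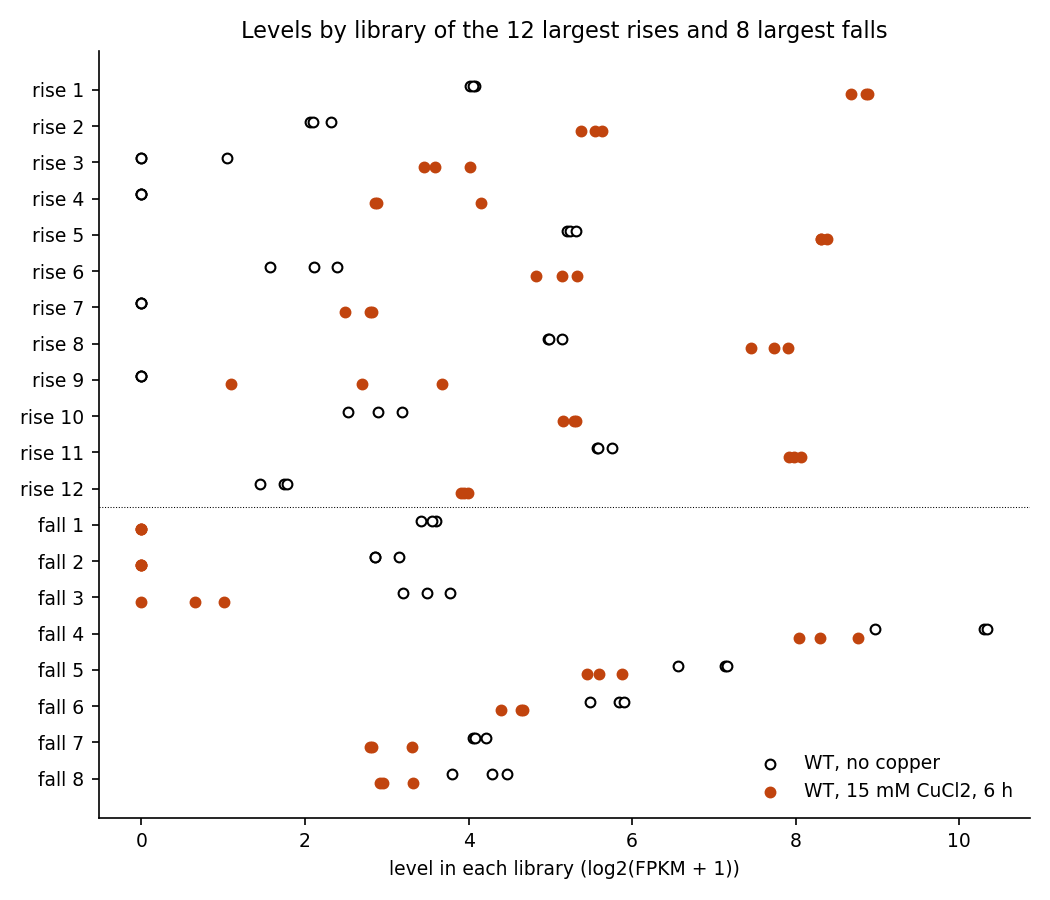
Level of the 12 largest rises and the 8 largest falls in each WT library (log2(FPKM + 1), 3 open circles without copper and 3 filled circles with 15 mM CuCl2 for 6 h). Genes were eligible if called, if the higher of both group means was 5 FPKM or more, and if the groups did not overlap, so that the gap between circles is there by choice. M433DRAFT_310551 is rise 1 and M433DRAFT_446038 is fall 1, and fall 4 has a control library close to the copper libraries.

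In 5 genes copper was set against a control that was listed at 0 in all 3 libraries, with at least 1 FPKM in every copper library. The gene ranked as rise 4 in the plot by library reached 6.37, 6.23 and 16.8 FPKM, the seventh 4.6, 5.95 and 6.08 FPKM and the ninth 11.8, 5.47 and 1.13 FPKM. The ninth was the least even of these, and its call was lost in a fit of the 6 WT libraries alone (adjusted p = 0.0704, with a range of 0.000134 to 0.153 over 14 alternatives). Another gene went to 4.59, 4.35 and 1.62 FPKM and the last to 1.11, 1.11 and 1.63 FPKM. No fold is given for them, since a listed 0 has no known read count behind it. The reverse, at least 1 FPKM in every control and 0 in every copper library, was found in 3 genes, described with the falls.

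A wider count took all genes that passed 1 FPKM. In 54 genes every control lay under 1 FPKM and every copper library at 1 FPKM or more, and 42 of them were called. They stayed weak, with a median of 0.612 FPKM without and 1.67 FPKM with copper and no mean above 9.80 FPKM. Only 14 genes crossed 1 FPKM downwards, 10 of them called. Over all tested genes 21.4% were called, and a choice of genes whose groups do not overlap favours a call.

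The number of strong rises among abundant genes depended on how the level was taken. Of the 105 genes, 8 had a mean of at least 100 FPKM without copper and 23 had one with copper. The 8 were among 1311 tested genes of that level without copper. By the mean over the WT libraries with and without copper, 18 of 1320 such genes were strong rises, against 105 of the 8741 tested genes. A low control favours a strong rise, and a rise lifts the mean over all WT libraries. The 8 genes ended between 346 and 1067 FPKM, and their rises lay between 2.16-fold and 3.73-fold. The most abundant went from 510, 388 and 586 FPKM to 1069, 1042 and 1091 FPKM. The steepest of the 8 went from 154, 114 and 123 FPKM to 483, 508 and 466 FPKM. In all 8 genes WT replicate 2 was the lowest control, a feature taken up below.

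Called changes of the most abundant transcripts were modest in size. Among the 100 tested genes of highest mean level, none under 1934 FPKM, 9 were called higher, 12 lower and 79 neither. Of these genes 0 changed by 2-fold, and fitted changes of called genes lay between -0.40 and 0.70. Over all tested genes 21.4% were called, and strong changes were 1.2% upwards and 0.183% downwards, so these counts lie near the shares of all genes. By difference of means in FPKM, the largest called gain was in a gene that went from 5358, 3169 and 4839 FPKM to 7239, 7212 and 5574 FPKM. Its groups lay close, and its call was lost when copper replicate 1 or 2 was left out (adjusted p = 0.107 and 0.103, with a range of 0.0155 to 0.245 over 14 alternatives). The second gain was firmer, from 4563, 4051 and 4318 FPKM to 6227, 6929 and 6344 FPKM (1.51-fold, fitted change 0.59, SE 0.060, limma adjusted p = 1.56e-05). The next 3 gains ran from 2826 ± 298 to 4585 ± 312 FPKM, from 1345 ± 129 to 2482 ± 69.5 FPKM and from 1474 ± 201 to 2329 ± 75.9 FPKM, that is 1.62-fold, 1.85-fold and 1.58-fold.

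Among the 5 ranked gains and 5 ranked losses by FPKM, the losses ranged more widely in proportion. That range came from a single gene, the second below, whose call was lost in 6 of 14 alternatives. Over all genes of at least 100 FPKM, strong rises numbered 18 and strong falls 3. By FPKM lost, the largest among called genes whose groups did not overlap was from 3896 ± 323 to 3060 ± 202 FPKM (1.27-fold lower, adjusted p = 0.00185 by limma). The second, from 1020 ± 450 to 336 ± 88.7 FPKM, was 3.03-fold, and a called gene whose groups overlapped lost more FPKM than either, from 2298 ± 761 to 1113 ± 293 FPKM. Both are described with the strong falls. Others fell from 1877 ± 94.1 to 1248 ± 63.6 FPKM, 1.503-fold, and from 2456 ± 108 to 1855 ± 72.1 FPKM, 1.32-fold. One more gene, at 6788 ± 209 and 6187 ± 67.7 FPKM, was called at an adjusted p of 0.0267 by limma, and 10 of 14 alternatives lost that call (range 0.0214 to 0.253).

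The strong falls were few. Of the 16 genes, 8 had a mean under 5 FPKM with copper and 4 had one of at least 100 FPKM without it. Their median level went from 13.5 to 4.34 FPKM. In 15 of them every copper library lay below every control, which was the case in 18% of the tested genes.

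The falls to 0 led the list. M433DRAFT_446038 had 11.2, 10.8 and 9.72 FPKM in the controls and was listed at 0 in all 3 copper libraries (limma adjusted p = 5.42e-09). M433DRAFT_966 had 6.27, 7.87 and 6.21 FPKM and was likewise at 0 with copper (limma adjusted p = 5.95e-10). A weaker gene, at 2.25, 2.79 and 3.59 FPKM, also went to 0. All 3 were listed at 0 in the ∆ArAceA copper libraries as well, while their ∆ArAceA controls lay between 4.21 and 7.76 FPKM. The third fall in rank had 10.3, 12.6 and 8.15 FPKM without copper and 0.57, 1.01 and 0 FPKM with it. In ∆ArAceA it showed the reverse, with 0 in every control and 7.40, 16.5 and 11.5 FPKM with copper.

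Most of the lost FPKM came from a few abundant genes. The summed level of the 16 genes was 3985 ± 1366 FPKM without copper and 1734 ± 420 FPKM with it, and 3 genes made up 92.0% of the loss. One of these went from 1260, 501 and 1300 FPKM to 314, 434 and 261 FPKM, 3.03-fold lower. Its fitted change was -1.51 (SE 0.367, limma adjusted p = 0.0191), and the call was lost when WT replicate 1, WT replicate 3, copper replicate 1 or copper replicate 3 was left out (adjusted p 0.0615 to 0.0625, with a range of 0.000528 to 0.336 over 14 alternatives). The second went from 468, 245 and 446 FPKM to 177, 220 and 152 FPKM. The third had 2704, 1420 and 2769 FPKM in the controls and 904, 1449 and 987 FPKM with copper, and was the only strong fall whose groups overlapped. The fourth abundant gene was lower in level, at 139, 93.4 and 143 FPKM without and 47.2, 57.8 and 42.7 FPKM with copper. Some falls at middle levels had smaller SEs than these abundant genes. One went from 56.1, 44.0 and 59.0 FPKM to 24.4, 24.0 and 20.1 FPKM (2.32-fold lower, SE 0.126). Another went from 17.6, 15.6 and 15.9 FPKM to 6.03, 8.88 and 5.96 FPKM (2.35-fold lower, SE 0.127). WT replicate 2 was the lowest control in both.

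**Figure D4:**
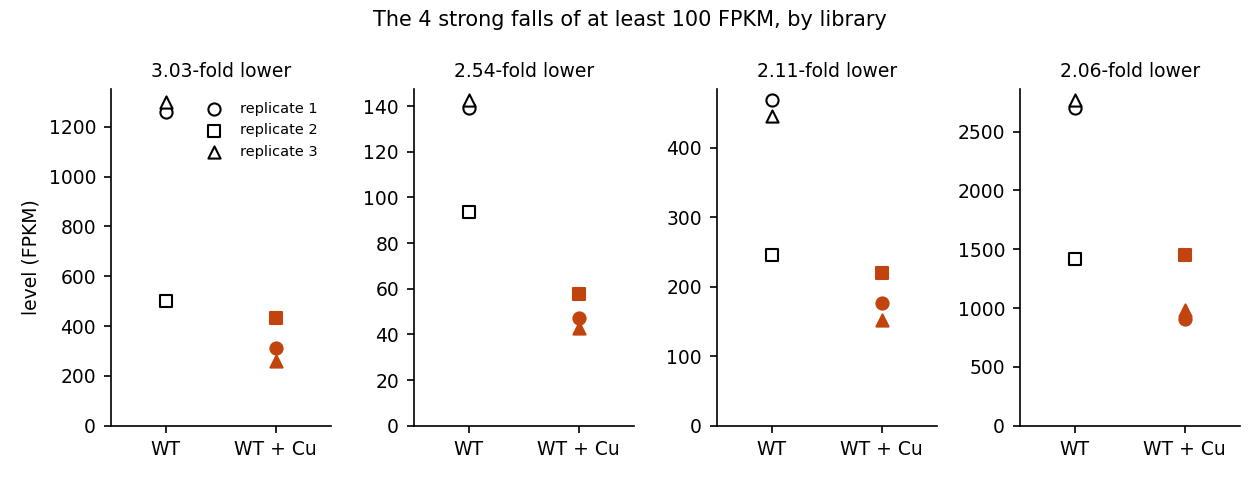
Level (FPKM, axes from 0) of the 4 strong falls with a mean of at least 100 FPKM without copper, in the 3 WT libraries (open) and the 3 WT libraries with copper (filled), with a marker for each replicate number. In all 4 genes the open square, WT replicate 2, is the lowest control, and in the gene on the far right it lies under a copper library.

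WT replicate 2 stood apart from the other controls in the responding genes, a feature noticed after their values were seen. It was the lowest of the 3 controls in 54 of the 105 strong rises and in 9 of the 16 strong falls, against 22.3% of all tested genes. Among genes of at least 100 FPKM without copper this held for 8 of 8 strong rises and 4 of 4 strong falls. The share over all tested genes of that level was not taken. Over all tested genes the lowest control was replicate 1 in 3869, replicate 2 in 1950 and replicate 3 in 2922. Ties were given to the lower replicate number.  Without WT replicate 2 the strong changes were 99 higher and 22 lower, with 94 of the 105 rises and 14 of the 16 falls still among them. Without WT replicate 1 or 3 the strong falls numbered 11 and 12. Over all 6 libraries left out in turn, strong rises ranged from 97 to 115 and strong falls from 11 to 22. What set this library apart was not tested.

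Beside the ∆ArAceA strain the strong genes of WT fell into unlike classes, by limma's test of the difference between the copper responses. The copper responses of the strains share no library, but the test of their difference includes the WT libraries by which the genes were chosen. Genes chosen for a strong change in WT tend by that choice to show a smaller one elsewhere. That choice also favours a called difference, so the counts below are a description. Over all tested genes that test called 25.6% more negative and 20.2% more positive in ∆ArAceA. Of the 24 genes raised at least 4-fold in WT, the response was more negative in ∆ArAceA in 12 and more positive in 6, and in the other 6 no difference was called. In ∆ArAceA 20 of the 24 were also called higher with copper and 2 lower, where 24.7% and 31.5% of all tested genes were called. The median log2 change of the 24 was 2.28 in WT and 1.65 in ∆ArAceA, and over all tested genes the medians were -0.01 and -0.04. The 81 genes raised between 2-fold and 4-fold had medians of 1.31 and 0.81, with 42 more negative in ∆ArAceA, 14 more positive and 25 with no call.

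Single genes showed how far apart these responses were. The fifth-ranked rise, 8.67-fold in WT, went from 36.5 ± 2.82 to 57.2 ± 3.38 FPKM in ∆ArAceA, from a control level close to that of WT. The third went from 3.76 ± 1.45 to 3.82 ± 1.96 FPKM there, and the sixth from 14.7 ± 1.27 to 25.0 ± 4.22 FPKM, both from controls above those of WT. The eighth, 6.57-fold in WT, went from 108 ± 8.31 to 1145 ± 109 FPKM. The 11th gene had 48.8 ± 3.48 and 253 ± 13.1 FPKM without and with copper in WT. Its ∆ArAceA levels were 60.2 ± 1.67 and 295 ± 6.83 FPKM. Its responses differed by -0.08 in log2 units with an SE of 0.0764, which was not called (limma adjusted p = 0.403).

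Of the 8 abundant strong rises, 6 had a more negative response in ∆ArAceA, against 25.6% of all tested genes. The gene that rose 3.04-fold from 156 ± 10.4 to 474 ± 40.1 FPKM in WT had 237 FPKM without and 169 FPKM with copper in ∆ArAceA, taking means of 3 libraries. The one with 495 ± 99.7 and 1067 ± 24.4 FPKM in WT had 905 and 823 FPKM. In one of the 8 the response was more positive there, from 160 to 686 FPKM against 134 ± 25.0 to 346 ± 24.9 FPKM in WT, and for one the difference was not called. Among the 16 strong falls, 12 were also called lower with copper in ∆ArAceA, 1 was called higher and 3 were not called. Of all tested genes 31.5% were called lower there and 24.7% higher.

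**Figure D5:**
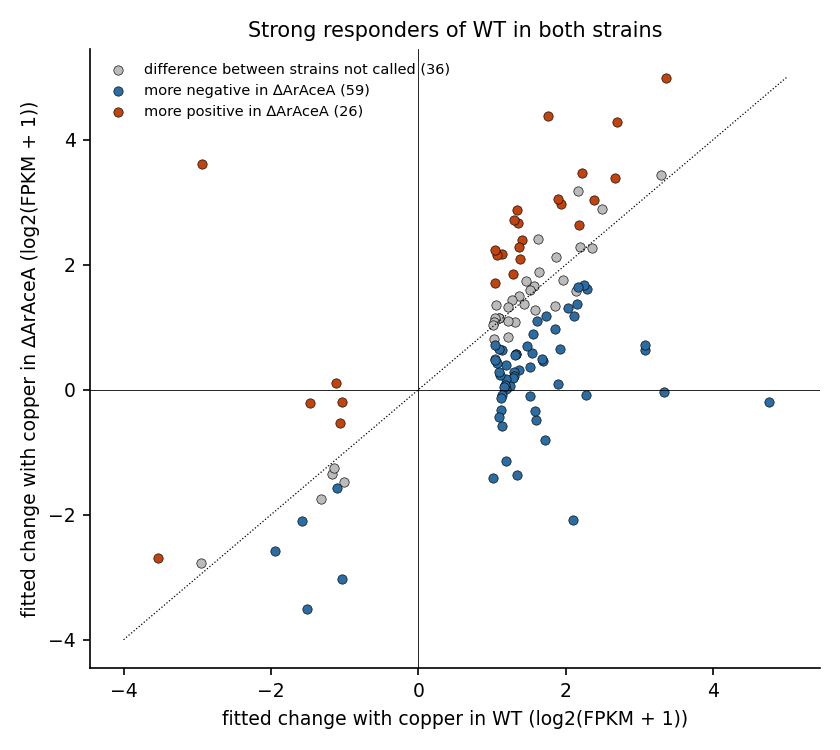
Fitted change with copper in WT (horizontal) and in ∆ArAceA (vertical) for the 105 strong rises and 16 strong falls of WT, on the log2(FPKM + 1) scale, with a dotted line where both are equal. Colours give the test of the difference, with 59 genes more negative in ∆ArAceA, 26 more positive and 36 not called, and M433DRAFT_310551 lies at the far right, near 0 on the vertical axis.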

How the data were processed

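The authors deposited FPKM values for each library and for the whole series, per the file headers, and the values were equal in all 12 libraries. FPKM is already scaled by transcript length and library size. The tools named, per the submitters' processing notes, are RSEM 1.2.8, HISAT2 2.1.0 and DESeq2, without their roles. The genome build, annotation and strand setting are not given in the sources used here, so overlapping or near-identical genes cannot be told apart. The deposited log2 ratios and Q values were not used. All per-library columns matched a sample.

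limma 3.58.1 in R 4.3.3, with trended, robust moderation, was fitted to log2(FPKM + 1) with a mean for each of 4 groups (8 residual degrees of freedom), and p-values were adjusted by Benjamini-Hochberg over 8741 genes. The filter dropped 1302 of 10043 genes. Tests are two-sided. Fitted changes understate those of low genes, while folds beside FPKM are ratios of group means. Named genes were the 12 largest rises and 8 largest falls by fitted change, and 5 gains and 5 losses by FPKM, among 1593 called genes whose groups did not overlap and whose higher mean was 5 FPKM or more. Lists by gene product were not run. The behaviour of WT replicate 2 and the genes named beyond these ranks were chosen after their values were seen. Relative depth came from 855 ratios of low values in 691 genes, kept only if their natural log was under 0.15 in size. No library was a copy, since at most 0.270% of values were equal between any pair over genes of at least 10 FPKM. The procedure was tested on simulated data. The comparison, rules and alternatives were chosen with earlier results of these data known.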

Additional observations from a re-analysis of the deposited data

Results flagged for a closer look

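Of the 32 genes that were ranked or listed at 0 in a group, 22 responded to copper differently in ∆ArAceA and WT by limma's test of the difference (adjusted p under 0.05), 11 more negatively and 11 more positively in ∆ArAceA. Most of these genes were chosen by their change in WT, whose libraries the test also uses. Over all tested genes the same test called 25.6% more negative and 20.2% more positive. The values here are that difference, ∆ArAceA minus WT, on the log2(FPKM + 1) scale.

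Among the ranked rises, the difference was -4.96 for M433DRAFT_310551 (first), -3.37 for the third, -2.45 for the fifth, -2.36 for the sixth and -0.68 for the 12th. It was positive for M433DRAFT_154429 (second) at 1.63, for the seventh at 1.58, for the eighth at 0.72 and for the tenth at 0.66.

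Among the ranked falls, it was 0.84 for M433DRAFT_446038, 6.55 for the third, which moved in opposite directions in the strains, -2.01 for the fourth and 1.23 for the eighth.

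Of the genes ranked by their gain in FPKM, the second stood at -0.44, the fourth at -0.31 and the fifth at 0.79. Of those ranked by their loss, the third stood at 0.60, the fourth at 0.54 and the fifth at 0.22.

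Of the genes listed at 0 in every WT control, the one that reached 4.59, 4.35 and 1.62 FPKM with copper in WT had a difference of -4.18, with 6.96, 9.45 and 7.95 FPKM in ∆ArAceA controls and 1.33, 0 and 3.2 FPKM with copper there. The one that reached 1.11, 1.11 and 1.63 FPKM had one of -1.11. The weakest of the 3 genes at 0 in every WT copper library had one of -0.63.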

How the results depend on the processing

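Strong changes were 161 higher and 26 lower with a pseudocount of 0.1, and 36 and 5 by the test against a minimum change of 2-fold. A fit on the 6 WT libraries alone called 596 genes lower, in place of 938. The pairing of replicate numbers was checked: libraries of WT and WT with copper with the same number deviated with r = -0.175 to 0.0325, and 0 of 6 correlated best with their own number. With a replicate block in the 6 WT libraries 553 genes were called higher and 376 lower, and with a replicate block in the 12 libraries 839 and 782. The smaller fits have fewer residual degrees of freedom, and the cause of these moves was not tested. The counts of called and strong genes moved by no more than 1.5 times without the filter, under either scaling, with plain moderation and with each library left out. Level classes under both scalings were added after the data were seen. The 29 ranked genes kept their direction in all 406 values, and 23 values lost the call. Depth was unknown, so listed zeros have no stated limit.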

Other observations

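Locus numbers that follow each other were looked at without knowing where the genes lie, since positions were not used here. In 777 pairs of tested genes with consecutive numbers the copper changes in WT correlated at r = 0.114 (Spearman's rho = 0.124) across pairs from the same libraries. Both genes were called higher in 18 pairs, both lower in 13, and in opposite directions in 18. In 3 pairs both changes were at least 2-fold, and these pairs were picked for those values.

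M433DRAFT_966, which went from 6.78 ± 0.942 FPKM to a listed 0 with copper, is followed by the 11th-ranked rise, at 48.8 ± 3.48 and 253 ± 13.1 FPKM. In ∆ArAceA the first went from 5.83 ± 0.118 FPKM to 0 and the second from 60.2 ± 1.67 to 295 ± 6.83 FPKM. Whether the gene models overlap was not tested.

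The third-ranked rise follows a gene that rose from 4.03, 2.62 and 0.86 FPKM to 12.1, 16.9 and 15.3 FPKM in WT. In ∆ArAceA that gene had 6.00 ± 1.30 FPKM without and 5.62 ± 1.22 FPKM with copper, and the third-ranked rise had 3.76 ± 1.45 and 3.82 ± 1.96 FPKM. The last pair was called higher in WT, the first gene from 1.36 ± 0.153 to 10.3 ± 0.907 FPKM and the second from 25.7 ± 7.31 to 118 ± 6.82 FPKM in WT. The ∆ArAceA levels were 3.21 ± 0.0306 and 12.5 ± 1.97 FPKM for the first gene and 18.0 ± 4.11 and 90.9 ± 12.8 FPKM for the second.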
